A study of Mus musculus with 10 samples.

Results

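The step from E14 to E15.5 (embryonic days) was examined in the mouse neocortex. The members were all genes of the deposited expression table with a mean of at least 1 TPM over the 10 libraries, which gave 6048 of 6147 genes, and the 4 libraries of the E14 and E15.5 groups. Each group was neocortex of CD1 wild type mice, an outbred laboratory strain, with no treatment named in the labels and 2 biological replicates. The series also holds 2 libraries each from E12.5, E17 and the day of birth (P0), which entered the same fit. All libraries came from polyadenylated RNA of cleared lysates of whole frozen neocortex, so every value is an average over all cells of the dissected tissue. TPM gives the share of a gene's transcripts among all transcripts of a library, corrected for the length of the gene. How many animals went into a library, and how the tissue was trimmed, is not given.

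The neocortex is built from apical progenitors (radial glia) that line the ventricle and divide there. Their daughters, directly or through intermediate progenitors, become projection neurons that migrate outwards, grow axons and dendrites and later form synapses. Deep-layer neurons are born before upper-layer neurons. The tissue is wrapped in meninges, crossed by blood vessels and, along its inner edge, continuous with the choroid plexus, and all of these can be carried along in a dissection.

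Over the 6048 genes, 1113 were higher at E15.5 and 2015 were lower in limma's moderated test at a Benjamini-Hochberg adjusted p under 0.05. The background against which each gene group is read is therefore 18.4% of genes called higher and 33.3% called lower. The gene lists were written with earlier results of these data known, so an excess over this background can be partly built in. Changes are differences of log2(TPM + 1), with a standard error (SE), and understate the change of genes with low values. The median change of all genes was -0.13, with quartiles of -0.38 and 0.15. Of the calls, 35.6% were higher on TPM as deposited, 50.3% under median-of-ratios scaling and 49.0% under quantile normalization, so small falls in abundant housekeeping groups depend on the scale. Without E15.5 replicate 2 the genes called lower were 1323. A change of at least 1 was seen in 231 called genes that rose and 355 that fell. The falls reached further: 14 genes fell by more than the largest rise. With 2 libraries per stage, an exact permutation test of a single value cannot give a two-sided p below 0.333, so calls rest on the spread shared over all genes and stages. The 2 libraries of a stage correlated at 0.998 (E14) and 0.999 (E15.5) across genes, which are not independent replicates. The E17 libraries, which enter the same spread, differed more in the summed TPM of cytosolic ribosomal proteins. That sum was 59546 and 82088 at E17, 95900 and 95040 at E14, and 85863 and 86839 at E15.5. The 3128 calls became 4575 using only the 4 libraries, so a gene not called is not shown to be unchanged. The table's genes held 68.88% to 71.67% of all TPM in a library, and 5990 to 6036 of them reached 1 TPM; read depth is unknown, since TPM does not keep it. The libraries of both stages did not overlap in 87.8% of genes, so a lack of overlap alone marks little. Just outside the 1 TPM limit lay Mmrn2 (mean 0.99 TPM) and just inside it Fermt3 (1.001 TPM).

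The largest falls were in genes of tissues that are not neural. Ttr encodes transthyretin, the thyroid hormone carrier secreted by the choroid plexus. Its level was 1379 and 1491 TPM at E14 and 3.43 and 4.13 TPM at E15.5. The mean at E14 was 380 times the mean at E15.5 and the libraries of the stages were far apart, with a change of -8.23 (SE 0.21, adjusted p 8.62e-10). At E12.5 Ttr had been at 438 and 293 TPM, and at E17 and P0 it stayed between 2.93 and 5.14 TPM. Clic6, a chloride channel protein of the choroid plexus, moved with it. At E14 the libraries gave 26.1 and 26 TPM, and at E15.5 0.0378 and 0.114 TPM. The change was -4.65 (SE 0.14, adjusted p 1.92e-09). All 6 tested genes of the choroid plexus list were lower, with a median of -1.98; of these, Igf2 (-2.94), Igfbp2 (-0.93) and Cab39l (-0.41) are also expressed in meninges, vessels or neural cells. The Cab39l call was lost without E14 replicate 2 (adjusted p 0.053) or E15.5 replicate 2 (0.055). Igf2, an imprinted growth factor, was at 616 and 612 TPM at E14 and 76.1 and 82.3 TPM at E15.5.

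The embryonic globins came next. Hbb-y, the embryonic epsilon-like beta globin of primitive red blood cells, is a reverse-strand gene of chromosome 7 (GRCm38, 103851749 to 103853216). The libraries held 1951 and 1863 TPM at E14 and 8.15 and 8.79 TPM at E15.5. The mean at E14 was 225 times the mean at E15.5, and the change was -7.66 (SE 0.36, adjusted p 4.43e-08). Hbb-bh1, a second embryonic beta-like globin, was at 21.8 and 14.7 TPM at E14 and 0.228 and 0.328 TPM at E15.5. Both genes were higher still at E12.5, where Hbb-y stood at 4268 and 4429 TPM. Globin genes are related in sequence, and reads shared between them could affect the values of single globins. None of the 6 adult globin genes on the list had deposited values, so a change from embryonic to adult globins was not tested. Of 9 other red cell genes, 5 were lower and 3 higher. Their falls were small beside those of the globins on log2(TPM + 1), a scale that understates falls from low levels. The mean summed TPM of these 9 genes was 317 at E14 and 417 at E15.5. The count lower was 3 leaving out E14 replicate 1 and 3 with quantile normalization. Tfrc, the transferrin receptor, fell by 0.91 and Slc4a1, the anion exchanger of the red cell membrane, by 0.87. The 3 that rose, Add2 (1.11), Ank1 (1.07) and Sptb (0.41), encode parts of the membrane skeleton that neurons share with red cells; the Sptb call was lost without any one E12.5, E14 or E15.5 library (adjusted p 0.0537 to 0.19).

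Meningeal and mesenchymal genes fell almost as a block. Of 31 tested, 30 were lower and 0 higher, with a median of -1.94. Col3a1, a fibrillar collagen on chromosome 1 from 45311538 to 45349706, fell by the most. It stood at 28.8 and 27 TPM in the E14 libraries and at 0.331 and 0.457 TPM in the E15.5 libraries. Both E15.5 libraries were under 1 TPM, and the change was -4.37 (SE 0.11, adjusted p 8.62e-10). Lum and Dcn, small proteoglycans that bind collagen fibrils, changed by -4.19 and -3.54, and Col1a2, a chain of type I collagen, by -3.86. Crabp2, a retinoic acid binding protein, was at 43.3 and 34.3 TPM at E14 and 2.19 and 2.03 TPM at E15.5. Cxcl12, the chemokine that the meninges release to guide migrating cells, was at 235 and 269 TPM at E14 and 70.1 and 62.9 TPM at E15.5, and Serpinh1, the collagen chaperone, at 178 and 176 TPM at E14 and 40.2 and 37.4 TPM at E15.5. In both genes the stages did not overlap, as in 87.8% of all tested genes. Lgals1, a galectin abundant in mesenchyme, fell from 121 and 116 to 18 and 19.3 TPM (-2.61). The member that did not pass was Myl9, a myosin light chain of smooth muscle, at -0.24 (SE 0.12, adjusted p 0.117).

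All 5 tested vascular genes were lower, with a median of -2.11. Cdh5, the cadherin of endothelial junctions, was at 9.26 and 9.78 TPM at E14 and 1.18 and 1.34 TPM at E15.5. Col4a1 and Col4a2, the collagen chains of the vessel basement membrane, changed by -2.43 and -1.90, and Vtn, which pericytes secrete, by -2.11. Slc2a1, the glucose transporter of brain endothelium, changed by -1.59 (SE 0.13, adjusted p 1.86e-06). Among 5 macrophage and microglia genes 3 were lower and 1 higher, or 2 higher leaving out either E17 library. Mrc1, the mannose receptor of macrophages at the brain's borders, fell from 2.07 and 2.44 to 0.162 and 0.14 TPM, and Lcp1, an actin bundler of white blood cells, by 1.35. C1qb, a complement chain made by microglia, changed by -0.64, and by -0.33 under quantile normalization (adjusted p 0.0721). Coro1a, an actin regulator of white blood cells that neurons also express, rose by 0.73.

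**Figure D1:**
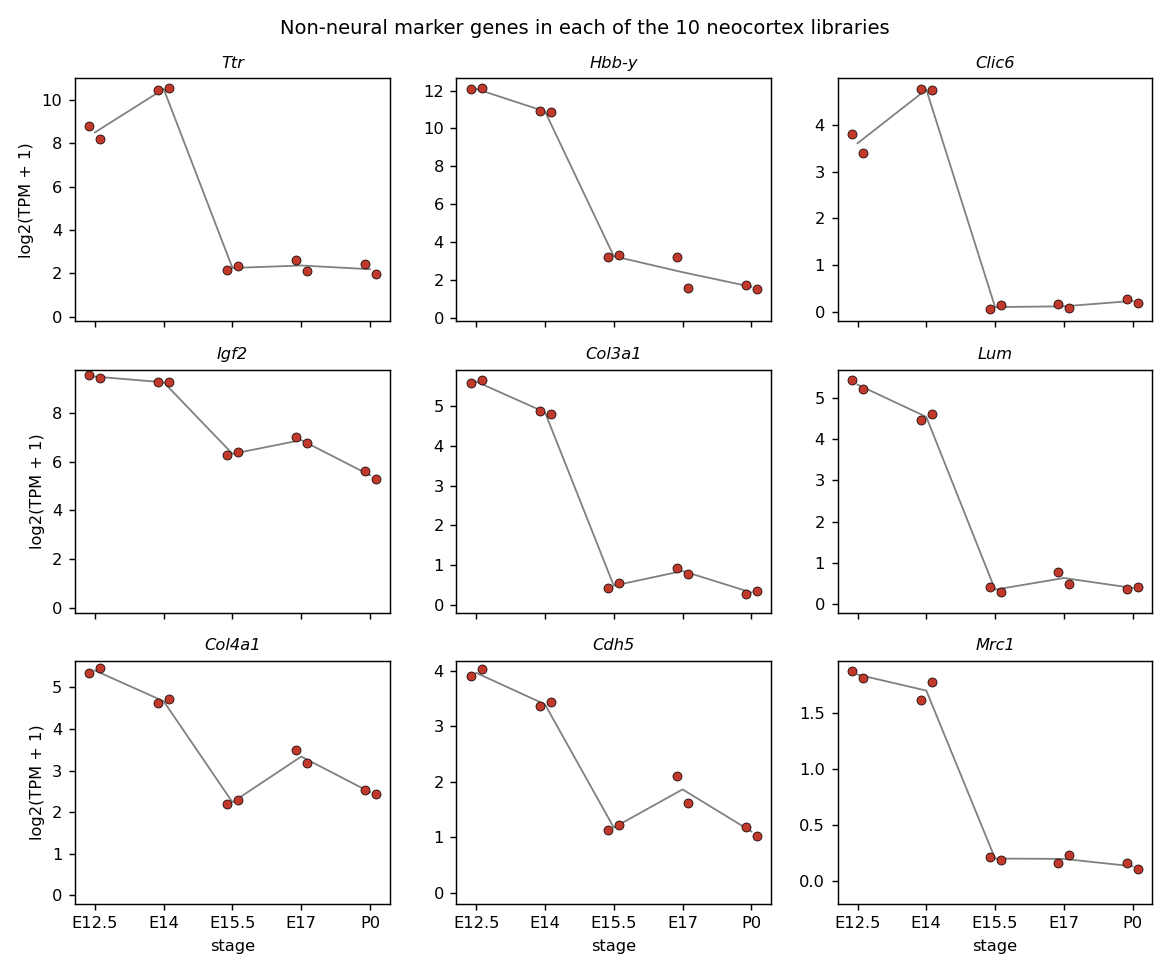
Each panel gives log2(TPM + 1) of 1 gene in the 10 libraries (dots, 2 per stage) with the stage means joined by a line. In all 9 genes, chosen as examples, both E15.5 libraries lie below both E14 libraries. The libraries of the 2 stages did not overlap, in either direction, in 87.8% of all tested genes. Ttr and Clic6 are higher at E14 than at E12.5, and Col4a1 and Cdh5 are higher at E17 than at E15.5.

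Over all non-neural lists, 52 of 60 tested genes were lower (86.7%, against 33.3% of all genes) and 5 higher, with a median of -1.63 beside -0.13 over all genes. Sums were taken over all 76 list genes with deposited values, tested or not. The summed abundance was 6096 and 6095 TPM in the E14 libraries and 1117 and 1125 TPM in the E15.5 libraries. Without the globins and Ttr the sum went from 2735 to 1108 TPM, and 49 of 57 genes were lower. The number called lower lay between 44 and 53 over all alternatives. Liver and muscle markers were near absent at both stages: of 11 liver and plasma genes in the table, 10 had a mean under 1 TPM, among them Alb, and all 3 muscle genes did. Apoe, the lipid carrier made by several brain cells and by the liver, was the liver gene that passed and changed by -1.07. In bulk tissue fewer cells of a type and less RNA per cell cannot be told apart. What was trimmed from the neocortex at each stage is not stated, so dissection and developmental stage cannot be told apart for these genes.

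Progenitor genes formed the second falling group. Of 20 apical progenitor genes, 16 were lower, 3 higher and 1 was not called, with a median of -1.05. Id4, an inhibitor of basic helix-loop-helix factors, fell by the most. Its level was 766 and 771 TPM at E14 and 166 and 145 TPM at E15.5. The groups were far apart, and the change was -2.30 (SE 0.09, adjusted p 1.07e-08). Pax6, the transcription factor that specifies cortical radial glia, was at 111 and 111 TPM at E14 and 53.3 and 49.9 TPM at E15.5 and changed by -1.09. Sox2 (-0.85) and Sox9 (-1.45), stem cell transcription factors, Nes (-0.96) and Vim (-0.88), intermediate filaments of radial glia, and Prom1 (-1.54), a protein of the apical membrane, fell by different amounts. Notch1, the receptor that holds progenitors undifferentiated, changed by -1.29 (SE 0.23, adjusted p 0.000631), and Fgfr3, a growth factor receptor, by -1.98.

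The 3 apical progenitor genes that rose were Fabp7, Ptprz1 and Tnc. Fabp7, a fatty acid binding protein of radial glia and early astrocytes, was at 933 and 932 TPM at E14 and 1245 and 1349 TPM at E15.5 and changed by 0.47 (SE 0.15, adjusted p 0.0202), a call that was lost without any one E14 or E15.5 library (adjusted p 0.0529 to 0.122). Ptprz1, a receptor phosphatase, rose by 0.69, and Tnc, the matrix protein tenascin C, by 1.66. All of them are also made by outer radial glia or by glial precursors. Slc1a3, a glutamate transporter of the same cells, was at -0.06 (adjusted p 0.616). Of the intermediate progenitor list, 2 genes were tested, with 1 lower and 0 higher, or 1 higher leaving out either E17 library. Eomes, the T-box factor that marks these cells, was at 171 and 164 TPM at E14 and 99.7 and 99.6 TPM at E15.5 and fell, whereas Insm1, a zinc finger factor of cells leaving the ventricle, was at 0.21 (adjusted p 0.16).

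Genes of early developmental timing fell in all 4 tested cases. Hmga2, a chromatin protein of young progenitors that is repressed as they age, lies on chromosome 10 from 120361275 to 120476469. At E14 the libraries gave 79.8 and 79 TPM, and at E15.5 9.5 and 7.37 TPM. It had been at 247 and 222 TPM at E12.5, and the change from E14 was -3.10 (SE 0.22, adjusted p 8.15e-07). The RNA binding proteins Igf2bp2 (-1.61), Igf2bp1 (-1.27) and Igf2bp3 (-0.74), which like Hmga2 are targets of the let-7 microRNAs, fell less.

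Cell division genes fell almost without exception. All 53 tested mitosis genes were lower, with a median of -1.27 and a range from -1.71 to -0.32, and 39 of 40 replication and S phase genes were lower, with a median of -1.02 and 0 higher. The summed TPM of the mitosis list fell from 5219 and 5056 to 2010 and 1886, and that of the replication list from 2596 and 2467 to 1312 and 1297. Ccnd2, the cyclin D of cortical progenitors, fell by the most. The libraries held 2167 and 2055 TPM at E14 and 661 and 631 TPM at E15.5. Its change was -1.71 (SE 0.09, adjusted p 1.06e-07). Ube2c, the ubiquitin carrier of the anaphase-promoting complex, was at 299 and 295 TPM at E14 and 120.1 and 102 TPM at E15.5, Cdk1, the kinase that drives mitosis, at 148 and 148 TPM at E14 and 64.6 and 62.7 TPM at E15.5, and Top2a, which untangles chromosomes, at 79.8 and 85.1 TPM at E14 and 30.7 and 29 TPM at E15.5. In each of these genes both E15.5 libraries lay well below both E14 libraries. Bub3, a checkpoint protein that also acts outside mitosis, changed least (-0.32), and its call was lost without E14 replicate 1 (adjusted p 0.058) or E15.5 replicate 2 (0.0551). Among replication genes, Cdk2 (-1.43) fell most; Pcna, the sliding clamp, was at 254 and 242 TPM at E14 and 126 and 130.5 TPM at E15.5, and Mcm5 and Mcm6, subunits of the replicative helicase, changed by -1.27 and -1.09.

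Some promoters of these 2 lists hold short motifs. To show the motif letters in place, 5 that hold them are printed beside 1 of a rising gene. These are examples, and the shares over the lists follow the sequences. Promoters were taken from RefSeq on GRCm38.p6 as the 250 bases before the annotated start, and 4768 of 6048 tested genes had one. Letters were searched on both strands: the cell cycle homology region (CHR), TTTGAA; the CCAAT box, CCAAT; and the E2F sites TTCCCGC or TTGGCGC. In the first 3 promoters capitals mark CHR and CCAAT letters, in the Mcm5 and Mcm6 promoters E2F and CCAAT letters. In the promoter of Camk2b, a rising gene described below, none of the 3 motifs was found.
Cdk1 (chr10:69352913-69353162, reverse strand): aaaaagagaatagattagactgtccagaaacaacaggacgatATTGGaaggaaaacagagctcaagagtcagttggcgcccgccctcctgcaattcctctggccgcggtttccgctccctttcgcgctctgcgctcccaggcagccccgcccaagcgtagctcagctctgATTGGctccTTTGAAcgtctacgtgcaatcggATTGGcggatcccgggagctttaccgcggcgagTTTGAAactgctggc
Top2a (chr11:99024190-99024439, reverse strand): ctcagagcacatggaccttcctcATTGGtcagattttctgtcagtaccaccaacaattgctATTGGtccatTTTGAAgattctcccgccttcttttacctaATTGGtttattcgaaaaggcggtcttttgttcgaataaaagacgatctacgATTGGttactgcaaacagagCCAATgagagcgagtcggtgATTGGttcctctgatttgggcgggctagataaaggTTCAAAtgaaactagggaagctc
Ube2c (chr2:164769679-164769928, forward strand): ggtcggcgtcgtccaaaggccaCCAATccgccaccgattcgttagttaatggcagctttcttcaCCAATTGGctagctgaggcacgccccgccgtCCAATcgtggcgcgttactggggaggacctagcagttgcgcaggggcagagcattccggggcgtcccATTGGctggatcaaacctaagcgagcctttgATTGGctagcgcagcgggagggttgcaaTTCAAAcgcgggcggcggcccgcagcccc
Mcm5 (chr8:75109259-75109508, forward strand): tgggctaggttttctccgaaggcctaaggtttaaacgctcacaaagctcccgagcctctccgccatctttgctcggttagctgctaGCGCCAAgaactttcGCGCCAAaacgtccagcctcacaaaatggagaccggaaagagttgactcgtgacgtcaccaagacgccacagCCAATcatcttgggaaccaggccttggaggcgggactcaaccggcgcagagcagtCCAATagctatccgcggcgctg
Mcm6 (chr1:128359706-128359955, reverse strand): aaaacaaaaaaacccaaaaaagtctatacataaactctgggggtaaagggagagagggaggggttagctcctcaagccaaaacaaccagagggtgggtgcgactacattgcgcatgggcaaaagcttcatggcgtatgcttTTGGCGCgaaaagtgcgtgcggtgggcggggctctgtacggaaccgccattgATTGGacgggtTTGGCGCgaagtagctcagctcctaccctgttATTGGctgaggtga
Camk2b (chr11:6065749-6065998, reverse strand): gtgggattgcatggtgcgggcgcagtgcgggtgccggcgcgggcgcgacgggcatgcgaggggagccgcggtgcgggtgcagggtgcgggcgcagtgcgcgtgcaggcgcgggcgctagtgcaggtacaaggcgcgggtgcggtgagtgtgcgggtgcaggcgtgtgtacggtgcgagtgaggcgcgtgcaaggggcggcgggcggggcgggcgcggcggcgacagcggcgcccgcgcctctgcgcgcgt

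Of 43 mitosis genes with a promoter, 17 held CHR letters (39.5%), 29 held CCAAT (67.4%) and 14 held both (32.6%). Over all 4768 promoters of tested genes these shares were 9.9%, 35.9% and 3.94%, and over all 32851 RefSeq promoters on the list these were 16%, 33.8% and 5.55%. Of 32 replication genes, 12 held E2F letters (37.5%, against 11.7% of tested genes) and 21 held CCAAT (65.6%), while 5 held CHR (15.6%). CHR letters were not restricted to cell division genes: they were also in 6 of 22 meningeal and mesenchymal promoters (27.3%) and in 8 of 33 presynaptic promoters (24.2%). Between all called genes the difference was small: CHR letters were in 11.6% of promoters of genes called lower and in 8.23% of those called higher. E2F letters were in 13.9% and 8.93% of the same sets, and CCAAT in 40.9% and 30%. The CRE letters TGACGTC were in 5.27% and 5.29%, the E-box letters CAGATG in 7.87% and 9.52%, and the GATA letters AGATAA in 4.9% and 5.29%. The Top2a and Ube2c promoters each held 6 CCAAT matches, of which 1 pair in Ube2c overlaps, and in both the match nearest to the start, 23 and 29 bases before it, was a CHR match. A match describes letters only, and factor binding was not measured.

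Genes of neuronal differentiation rose. Of 202 tested in 7 lists, 138 were higher (68.3%, against 18.4% of all genes) and 24 lower, with a median of 0.62. The count lower was 14 leaving out E14 replicate 2 and 15 leaving out E15.5 replicate 2. Their summed TPM went from 31494 and 30746 at E14 to 48512 and 49641 at E15.5. In genes of new and migrating neurons, 24 of 28 were higher and 1 lower (3 leaving out either E17 library), with a median of 0.91. Sla, an adaptor protein that dampens receptor signalling, rose by the most. It stood at 57.3 and 59 TPM in the E14 libraries and at 423 and 416 TPM in the E15.5 libraries. The change was 2.83 (SE 0.09, adjusted p 1.92e-09). The stathmins of the list, which regulate microtubule growth, rose: Stmn4 by 2.28, Stmn2 by 1.55 and Stmn3 from 384 and 371 to 747 and 760.1 TPM. Dcx, the microtubule protein of migrating neurons, was at 1389 and 1390.1 TPM at E14 and 2384 and 2354 TPM at E15.5, and Tubb3, the neuronal beta tubulin, at 881 and 771 TPM at E14 and 1755 and 1837 TPM at E15.5.

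Some genes of the same list did not follow. Rnd2, a GTPase that lets newborn neurons begin to migrate, went the other way. Its level was 879.9 and 856 TPM at E14 and 349.9 and 315 TPM at E15.5. It was higher at E14 than at E12.5 (689.6 and 730.3 TPM), and its change to E15.5 was -1.38 (SE 0.10, adjusted p 8.45e-07). The RNA binding proteins Elavl2 (-0.06, adjusted p 0.696) and Elavl4 (-0.23, adjusted p 0.0999) were not called, while their relative Elavl3 rose by 0.88. Reln, the signal of Cajal-Retzius cells at the cortical surface, was at 18.5 and 20.3 TPM at E14 and 17.2 and 15.8 TPM at E15.5 (adjusted p 0.27), and Dab1, through which neurons read that signal, rose by 0.93.

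Axon genes were mixed, with 19 of 38 higher, 7 lower (4 leaving out E14 replicate 2) and a median of 0.36. Mapt, the axonal microtubule protein tau, rose by the most. At E14 the libraries gave 164 and 139 TPM, and at E15.5 625 and 666 TPM. Gap43, a growth cone protein, rose by 1.07, the adhesion molecules Ncam1 and Chl1 by 1.36 and 1.35, and the beta tubulins Tubb2a and Tubb2b by 1.16 and 0.97. Receptors of guidance cues split. Robo1 (0.66), Robo2 (0.65) and Nrp1 (0.42) rose; Dcc, the netrin receptor, fell (-1.64 (SE 0.27, adjusted p 0.000377)), as did Nrp2 (-0.63) and the ephrin receptors Epha4 (-0.93), Epha5 (-0.40) and Epha3 (-0.32). The ligands Slit2 (-1.55) and Efnb1 (-0.96) fell too, and Efnb2 was at 0.01 (adjusted p 0.944). The Nrp1 call was lost without any one E12.5, E14, E15.5 or P0 library (adjusted p 0.0517 to 0.205). The Epha3 call did not hold with median-of-ratios scaling (0.0602), nor leaving out E14 replicate 2 (0.152) or an E15.5 library (0.0971 and 0.0962), and those of Epha5 (0.0546) and Nrp2 (0.0589) did not hold leaving out E14 replicate 2.

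Filament and dendrite genes rose in 17 of 19 cases with 0 lower (1 leaving out either E17 library). Nefl, the light neurofilament chain, lies on chromosome 14 from 68083863 to 68089095. The libraries held 3.01 and 3.3 TPM at E14 and 25.9 and 28.9 TPM at E15.5. It had not been rising before, at 4.25 and 4.18 TPM at E12.5, and its change from E14 was 2.77 (SE 0.14, adjusted p 6.5e-08). Nefm, the medium chain, showed the same course, from 7.33 and 6.7 to 26.7 and 31.4 TPM. Map2, of dendritic microtubules, rose by 0.75, and the calcium sensor Vsnl1 and the dendritic enzyme Gda by 2.04 and 1.82 from low levels. Map1a was at -0.34 (adjusted p 0.115).

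Dync1i1 had the largest rise of all genes and lies on chromosome 6 from 5725639 to 6028039. It encodes the intermediate chain through which cytoplasmic dynein, the motor that moves cargo towards the cell body, binds dynactin in neurons. It stood at 14.6 and 12.9 TPM in the E14 libraries and at 106 and 109.7 TPM in the E15.5 libraries. The change was 2.89 (SE 0.10, adjusted p 4.18e-09). Dync1i2, the chain used in all cells, was at 106 and 103 TPM at E14 and 122 and 121 TPM at E15.5 and changed by 0.22, a call that was lost without any one E12.5, E14 or E15.5 library (adjusted p 0.0513 to 0.163). The heavy chain Dync1h1, which carries the motor, was at 0.18 (adjusted p 0.406). Of 24 motor genes, 13 were higher and 1 lower, with a median of 0.23; among the kinesins, Kif5a (1.18), the neuronal heavy chain, rose most, and Kif5b, its general relative, was at -0.20 (adjusted p 0.153). Fewer motor genes were called higher leaving out any one E14 or E15.5 library, which leaves 1 library at that stage. The median change of the list then lay between 0.22 and 0.29. The count lower was 0 leaving out E14 replicate 2 or either E15.5 library, and 2 leaving out either E17 library.

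Most synaptic genes rose. Of 42 presynaptic genes, 34 were higher and 4 lower, with a median of 1.02. Snap25, part of the fusion machinery, was prominent. Its level was 93.2 and 101 TPM at E14 and 310.3 and 328 TPM at E15.5. The change was 1.71 (SE 0.08, adjusted p 4.79e-08). Its partners in the fusion complex rose as well, Stx1a by 1.06 and Vamp2 by 1.11. Rims1, a scaffold of the active zone, rose by 1.75 but stayed low, at 1.63 and 1.48 TPM at E14 and 7.26 and 7.88 TPM at E15.5. Cplx1 rose by 1.46, while Cplx2, the more abundant complexin at both stages, went from 662 and 646 to 794 and 805 TPM, a call that did not hold with quantile normalization (adjusted p 0.127), nor without any one E12.5, E14, E15.5 or P0 library (0.0592 to 0.174). The 4 that fell were Unc13b (-0.54), Syt11 (-0.48), Sv2b (-0.32) and Cadps (-0.31); leaving out E14 replicate 1 or 2 or E15.5 replicate 1 kept 2 of these calls, and leaving out E15.5 replicate 2 kept 1. Quantile normalization kept 1 of them. Syn2 (0.06, adjusted p 0.625), Nsf (-0.04, 0.797), Stxbp5 (0.18, 0.263) and Rims2 (0.11, 0.617) were not called.

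On the receiving side, 23 of 32 genes were higher and 5 lower, with a median of 0.80. Only 3 were lower leaving out either E14 library or E15.5 replicate 2. Camk2b, the beta chain of calcium/calmodulin-dependent kinase II, rose most. At E14 the libraries gave 31.9 and 26.1 TPM, and at E15.5 162 and 182 TPM. The change was 2.53 (SE 0.11, adjusted p 2.28e-08), whereas Camk2a, the chain that dominates in the adult forebrain, was at -0.06 (adjusted p 0.678) at 10.2 and 9.69 TPM at E14 and 9.26 and 9.64 TPM at E15.5. Among receptors, Grin2b, an NMDA receptor subunit, rose by 1.85 (SE 0.28), Grm5 by 1.62 and the AMPA receptor subunits Gria1 and Gria2 by 1.04 and 0.76. Gabra3, a GABA-A receptor subunit, rose by 1.33. Grik2, a kainate receptor subunit, fell by 0.81. Of the scaffolds, Dlgap1 (1.92), Dlg2 (1.84) and Shank1 (1.36) rose, and Dlg1 (-0.66) fell. Ion channel and pump genes were mixed, with 9 of 20 higher, 6 lower and a median of 0.22.

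**Figure D2:**
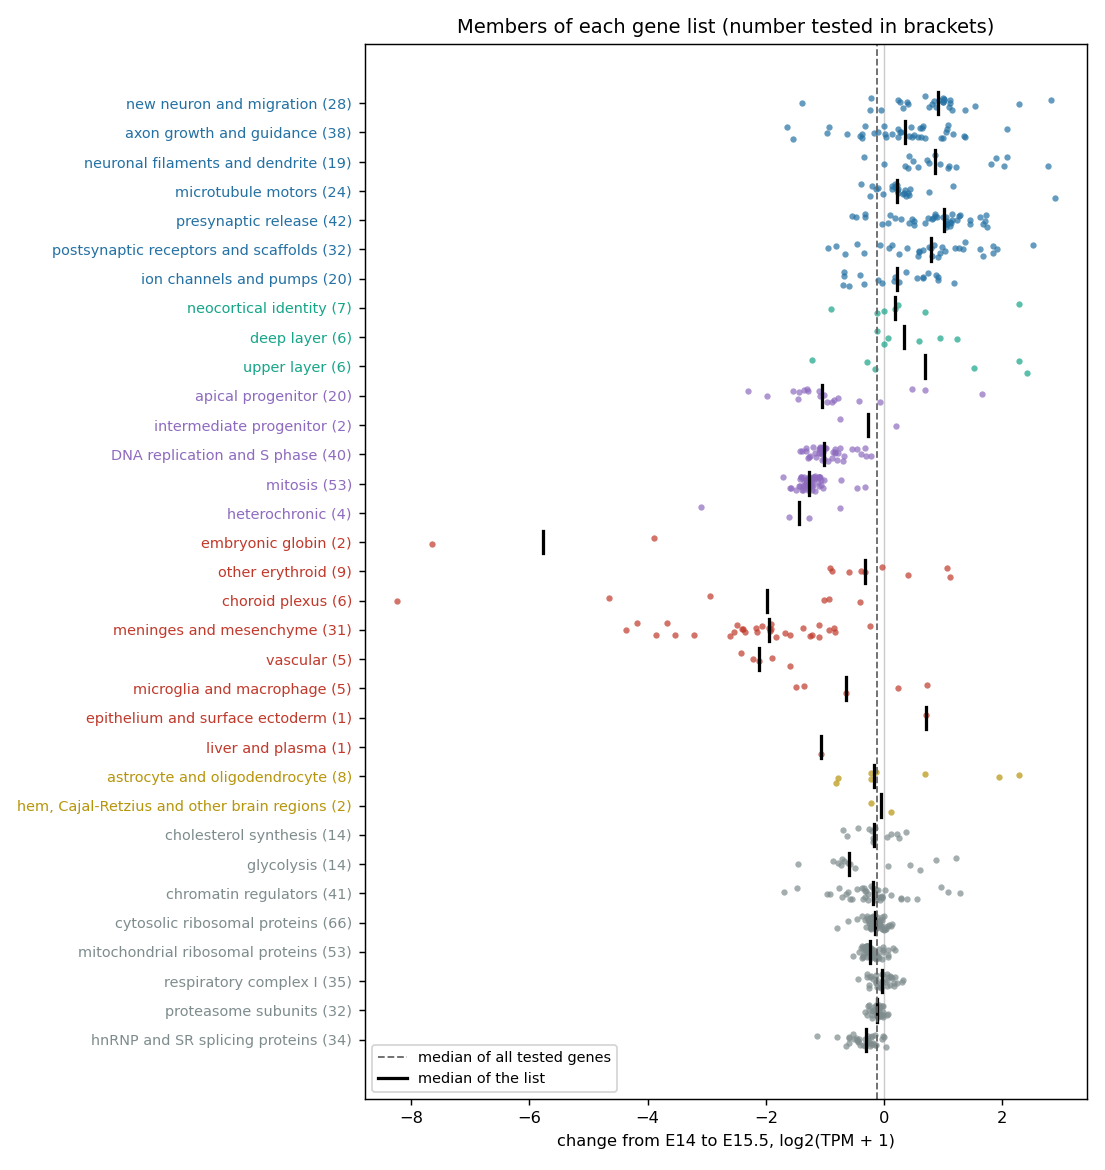
Each dot is 1 tested gene, placed by its change from E14 to E15.5 on the log2(TPM + 1) scale, with 1 row per gene list (number tested in brackets, colours by class) and a black bar at the list's median; dots are spread vertically only for legibility. The new neuron, filament and synaptic lists have medians from 0.80 to 1.02, the mitosis list lies wholly below 0, and the non-neural lists reach furthest left, to -8.23.

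Genes that mark cortical layers and areas split. Of 6 upper layer genes, 3 rose and 1 fell, or 2 leaving out either E17 library. Mef2c, an activity-dependent transcription factor, was at 56.1 and 59 TPM at E14 and 298 and 325 TPM at E15.5 and changed by 2.42 (SE 0.12, adjusted p 4.92e-08), and Pou3f2, which promotes upper-layer fate, by 1.53. Cux1 was at -0.15 (adjusted p 0.222), and Plxnd1, a semaphorin receptor also found in vessels, fell (-1.23). The deep layer factors Bcl11b (0.00, adjusted p 0.981), Tbr1 (-0.11, 0.367) and Sox5 (0.07, 0.685) were not called. Tle4, a corepressor of layer 6 neurons, rose from 31.7 and 32.1 to 78.6 and 74.3 TPM (1.24), as did Crym (0.94) and Foxp1 (0.59). Of the general cortical factors, Neurod2 rose by 0.69 and Emx1 fell by 0.90.

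Among glial genes, 3 of 8 rose from low levels and 2 fell, or 4 leaving out either E17 library. Aldh1l1, a folate enzyme used as an astrocyte marker, went from 0.476 and 0.41 to 5.45 and 6.58 TPM (2.28 (SE 0.12, adjusted p 1.15e-07)). Slc6a11, a GABA transporter of astrocytes, went from 0.942 and 1.14 to 6.82 and 6.91 TPM, and Gfap, the astrocyte filament, from 0.296 and 0.343 to 1.03 and 1.25 TPM, before reaching 27.7 and 25.5 TPM at P0. Clu, a secreted chaperone, and Aldoc, a glycolytic enzyme of astrocytes and progenitors, fell by 0.81 and 0.78.

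In several families the balance between members shifted. In 16 pairs of related genes, taken because the named gene and its relative went opposite ways and both were called, the share of the pair's summed TPM that came from the rising gene was compared; in 7 of them the rising gene became the more abundant. The clearest set was the BAF chromatin remodelling complex, in which neurons replace progenitor subunits. Actl6b, the neuronal actin-related subunit, was at 44.1 and 42.6 TPM at E14 and 103 and 112 TPM at E15.5, and Actl6a, the progenitor form, at 103 and 97.8 TPM at E14 and 52 and 49.7 TPM at E15.5. The Actl6b share of the pair went from 30.2% to 67.9%. Dpf1 rose as Dpf2 fell (46.3% to 73.7%), and Ss18l1 rose as Ss18 fell (52.1% to 77.6%). The remodellers Chd5 (1.88) and Chd7 (-1.70) exchanged places, with the Chd5 share going from 14.2% to 73.9%.

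Shares also shifted among metabolic and transport genes. Hk1, the hexokinase of neurons, rose as Hk2, that of proliferating cells, fell, and the Hk1 share went from 57.7% to 90.9%. Slc2a3, the neuronal glucose transporter, went from 28.2% to 64.8% of its sum with Slc2a1. In that pair Slc2a3 rose by 0.54, and Slc2a1, counted above among the vascular genes, fell by 1.59. Dissection and developmental stage cannot be told apart for Slc2a1, as for the other non-neural genes. Eno2, the neuronal enolase, remained the lesser form, at 7.77% and then 20.6% of its sum with Eno1. Slc12a5, the chloride exporter KCC2, rose from 1.1 and 1.03 to 2.97 and 2.82 TPM while Slc12a2, the importer NKCC1, fell (-0.68), and its share was 4.33% and then 16.8%. In the sodium pump, the beta chain Atp1b1 rose and Atp1b3 fell (18% to 45.1%).

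At the synapse, Homer1 rose as Homer2 fell (49.5% to 74.5%) and Unc13a rose as Unc13b fell (55.6% to 77.2%). The calcium sensor Hpcal4 went from 21% to 72.2% of its sum with Hpcal1, and Cdk5, the kinase of postmitotic neurons, from 46.9% to 76.1% of its sum with the cell cycle kinase Cdk2. Because the pairs were chosen for their direction, these shares are a description.

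**Figure D3:**
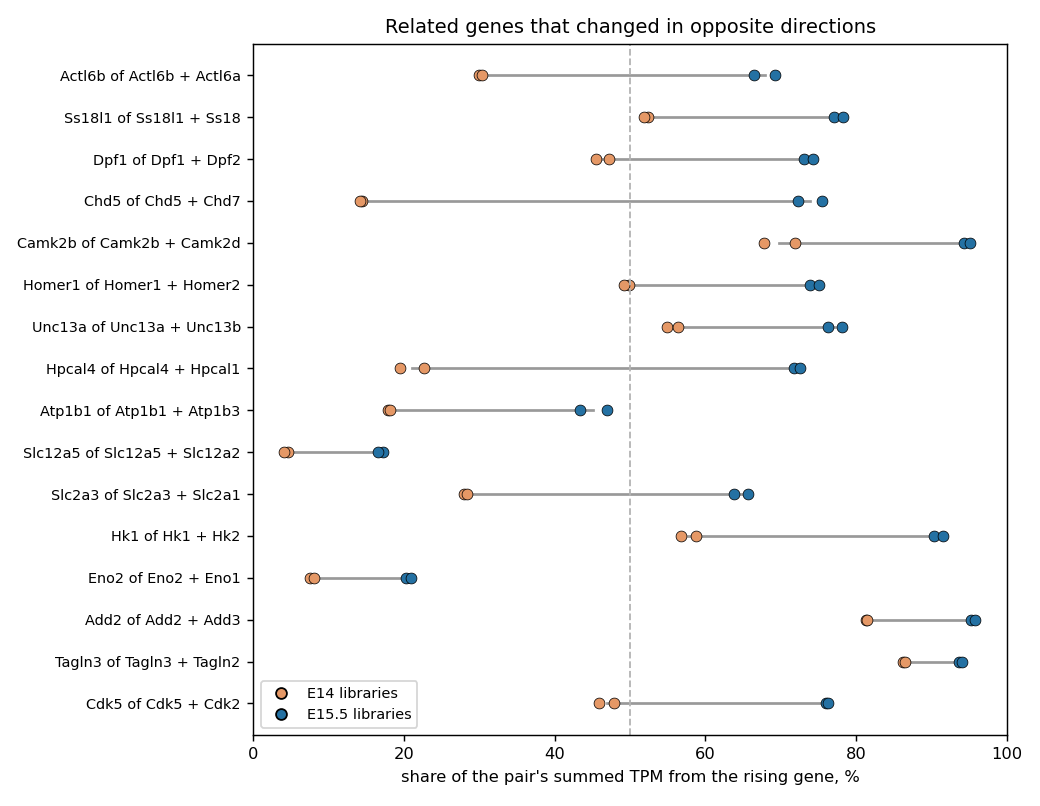
For each of 16 gene pairs the horizontal axis gives the share, in percent, of the pair's summed TPM that came from the rising gene in each E14 (orange) and E15.5 (blue) library, with a grey line between the stage means and a dashed line at 50%. The Chd5 and Hpcal4 pairs move furthest, and Slc12a5, Eno2 and Atp1b1 stay under 50% at both stages.

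Ribosomal, complex I and proteasome genes had medians between -0.23 and -0.03, while splicing regulators and glycolytic genes moved further. Of 53 mitochondrial ribosomal proteins, 24 were lower (45.3%, against 33.3% of all genes) and 0 higher, with a median of -0.23. Their count lower was 6 under median-of-ratios scaling, 9 under quantile normalization and 40 using only the 4 libraries. Of 66 cytosolic ribosomal proteins, 4 were lower and 0 higher, with a median of -0.15, close to the -0.13 of all genes. Using only the 4 libraries 46 were lower and 2 higher, and more were also lower without either E17 library. Under quantile normalization 19 were lower. Of 35 complex I genes, 2 were higher and 3 lower, and of 32 proteasome genes 5 were lower and 0 higher; the medians of both were above 0 under median-of-ratios scaling. The complex I count lower was 1 without any one E14 or E15.5 library, 9 without E17 replicate 1 and 8 without E17 replicate 2, and its count higher 1 without any one E14 or E15.5 library and 5 without either E17 library. The proteasome count was 0 without E14 replicate 1 or E15.5 replicate 1, 2 without E14 replicate 2 or E15.5 replicate 2, and 9 without either E17 library. Splicing regulators leaned lower, with 19 of 34 lower, 0 higher and a median of -0.30. Ptbp1, the splicing repressor that holds neuronal exons back in progenitors, fell most, from 177 and 159.6 to 79.7 and 72.6 TPM (-1.13 (SE 0.13, adjusted p 2.44e-05)). Of 14 glycolytic genes, 9 were lower and 4 higher, with a median of -0.59. Pkm, pyruvate kinase, was at 717 and 648 TPM at E14 and 428 and 424 TPM at E15.5, and Tpi1 and Ldha fell by 0.86 and 0.60, whereas the 4 that rose were Hk1, Eno2, Pfkm (0.43) and Pfkp (0.61). The Pfkp call was lost without any one E12.5, E14, E15.5 or P0 library (adjusted p 0.0631 to 0.207).

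**Figure D4:**
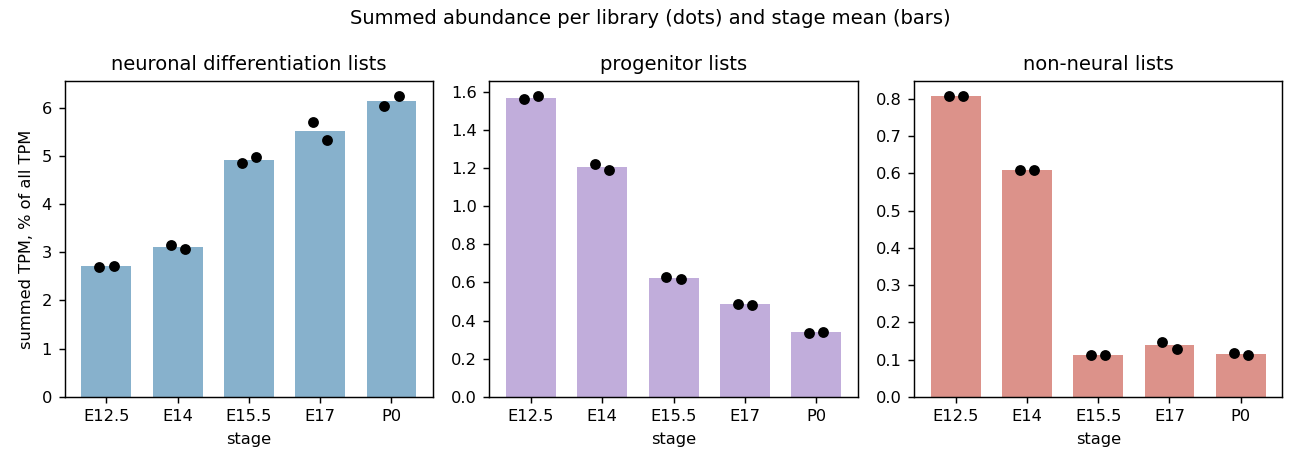
Bars give the mean and dots the 2 libraries of the summed TPM at each stage, as a percent of all TPM. Sums are over all genes of the neuronal differentiation, progenitor and non-neural lists with deposited values, tested or not. From E14 to E15.5 the neuronal sum gains 1.796 percentage points, the progenitor sum changes by -0.58 and the non-neural sum by -0.50.

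The 3 groups were then set against the flanking steps, E12.5 to E14 and E15.5 to E17, each also 1.5 days long. The step from E14 to E15.5 was chosen as the largest of the series, so a larger change here is partly built in. The step difference is a gene's change from E14 to E15.5 minus the mean of its 2 flanking changes. It was positive in 334 genes (5.52%) and negative in 615 (10.2%) at an adjusted p under 0.05. All 334 positive genes were also called higher from E14 to E15.5, and 611 of the 615 negative genes were called lower. The step difference is therefore not a separate result. Of all step differences past the threshold 35.19% were positive, against 52.15% under quantile normalization (570 positive and 523 negative) and 47.55% under median-of-ratios scaling. The 949 in all were 616 and 600 without E12.5 replicate 1 or 2, 328 and 258 without E14 replicate 1 or 2, 329 and 199 without E15.5 replicate 1 or 2, and 1881 and 2365 without E17 replicate 1 or 2. In the non-neural lists 46 of 60 genes (76.7%) had a negative step difference, among them 29 of 31 meningeal and mesenchymal genes and 5 of 5 vascular genes, and this count lay between 35 and 50 over all alternatives. In the progenitor lists it was 67 of 119, and in the neuronal differentiation lists 64 of 202 were positive. Both counts moved when 1 library was left out. Leaving out an E14 or E15.5 library leaves 1 at that stage and widens the standard error, so counts can fall without a smaller change. The progenitor median step difference was -0.62, and -0.61 and -0.62 without E12.5 replicate 1 or 2. Leaving out E14 replicate 1 or 2 gave 12 and 9 for progenitor and 33 and 25 for neuronal genes, and leaving out E15.5 replicate 1 or 2 gave 15 and 6, and 30 and 19. Without an E12.5 library the progenitor count was 33 (replicate 1) or 32 (replicate 2); without E17 replicate 1 the neuronal count was 105, and without E17 replicate 2 the progenitor count was 104. The largest negative differences were those of Ttr (-9.29), Hbb-y (-6.64), Clic6 (-5.24) and Col3a1 (-4.17), and the largest positive ones those of Nefl (2.67), Dync1i1 (2.28), Gucy1a3 (2.01), a subunit of soluble guanylate cyclase, and Nefm (1.98).

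The lists also differed in what came next. From E15.5 to E17 the median change was 0.28 for meningeal and mesenchymal genes and 0.73 for vascular genes, against -0.60 for mitosis, -0.49 for replication, 0.42 for presynaptic and 0.61 for postsynaptic genes. From E12.5 to E14 these medians were -0.39 and -0.57 for the meningeal and vascular lists. They were -0.50 and -0.46 for mitosis and replication, and 0.32 and 0.20 for the synaptic lists. Mitosis and synaptic lists thus had medians of 1 sign in all 3 steps, and the meningeal and vascular lists did not. Other non-neural lists differed among themselves. The embryonic globins had medians of 1 sign (-1.38, -5.77 and -0.52 in order of stage), and the choroid plexus list did not (0.04, -1.98 and 0.07). Both flanking steps share libraries with the one from E14 to E15.5, so these values are given side by side and were not tested against it. Col4a1 was at 3.56 and 3.89 TPM at E15.5 and 10.3 and 8.03 TPM at E17, and Sparc, a collagen-binding protein of mesenchyme and vessels, at 49.1 and 51.6 and 96.7 and 78.4 TPM.

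**Figure D5:**
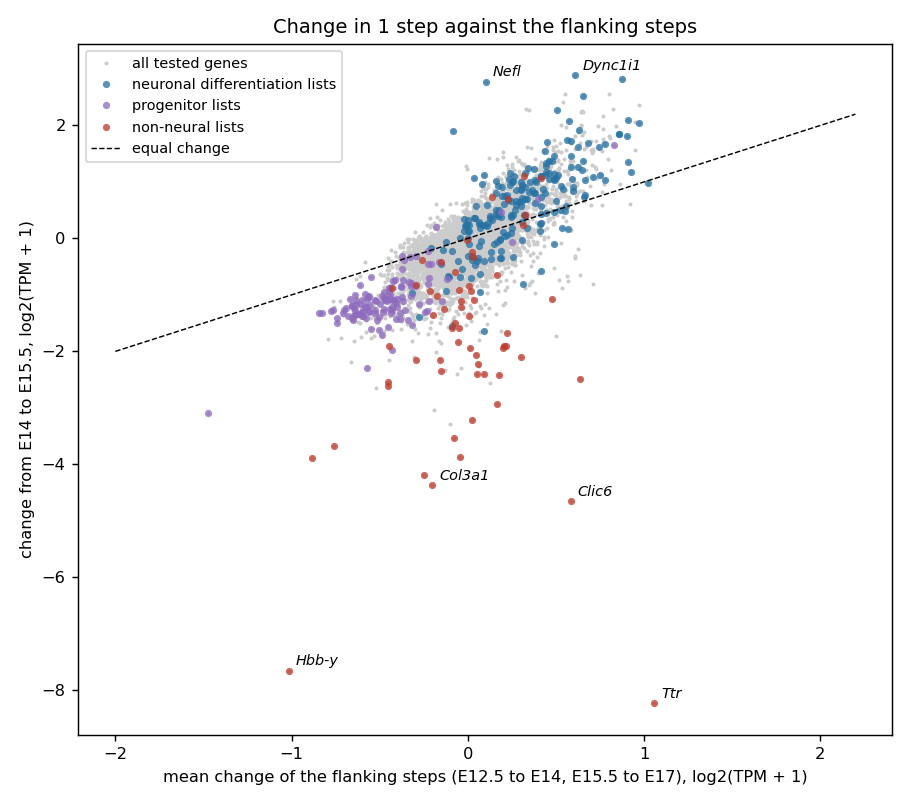
Each dot is 1 of 6048 tested genes, with the mean change of the 2 flanking steps on the horizontal axis and the change from E14 to E15.5 on the vertical axis, both on the log2(TPM + 1) scale; colours mark the neuronal differentiation, progenitor and non-neural lists, and the dashed line marks equal change. Most progenitor genes lie at the lower left and most neuronal genes at the upper right, while many non-neural genes lie near 0 on the horizontal axis and far below the line.

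Other genes with large changes belonged to no list. Among the 12 largest rises were Gucy1a3 (2.56), the small GTPase Diras2 (2.55), the calcium binding proteins Hpcal4 (2.36) and Necab1 (2.29), and Prkar1b (2.24), a regulatory subunit of protein kinase A that is found mainly in neurons. Among the 12 largest falls were Crabp1 (-3.03), a retinoic acid binding protein, and Msrb3 (-2.64), a methionine sulfoxide reductase. All 5357 tested genes in no list gave 944 higher (17.6%) and 1739 lower (32.5%).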

How the data were processed

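Polyadenylated RNA of neocortex was sequenced in 10 libraries, 2 per stage. The values are TPM per gene deposited by the authors, per the file headers; STAR, Subread and the build GRCm38.p5 are named in the submitters' processing notes, and the gene lengths behind TPM are not stated there. Genes averaging 1 TPM or more over the 10 libraries were tested on log2(TPM + 1) with limma 3.58.1 in R 4.3.3, with 1 coefficient per stage, a variance trend and Benjamini-Hochberg adjustment over 6048 genes (5 residual degrees of freedom, adjusted p under 0.05). All 10 libraries share 1 estimate of the spread. The labels call the replicates biological, and p-values measure the spread between these libraries. The step difference is a contrast of the same fit. Sums, shares and motif counts were computed in Python 3.11.15.

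The text names the 12 largest rises and falls (mean of at least 10 TPM, stages not overlapping, no predicted gene), the 4 largest step differences each way, list members, and related genes called in opposite directions. Some genes that this rule names are not reported here; counts over lists include them. Members, pairs and the 35 gene lists were chosen with earlier results of these data known, and a gene may sit in more than 1 list. Gene positions are those of GENCODE M21 on GRCm38, which held 6146 of 6147 genes. Promoters are from RefSeq on GRCm38.p6. The procedure was tested on simulated data. Alternatives were other scalings, filters, pseudocounts, spread models, a length and GC correction, a replicate block and leaving out each library.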

Additional observations from a re-analysis of the deposited data

How the results depend on the processing

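Gene changes and counts of calls were recomputed under the alternatives, except genes that a stricter filter removed and step differences with only the 4 libraries; pair shares and motif shares have no alternative, and summed TPM had only the share of listed genes and left-out E14 and E15.5 libraries. No called gene that the text names changed sign. The balance of calls did turn: median-of-ratios scaling gave 1576 higher and 1555 lower, and quantile normalization 570 positive and 523 negative step differences. Of the named genes, 17 that were called lost the call and 10 that were not gained one under at least 1 alternative, and 7 that were not called changed sign. Under quantile normalization Camk2a was at 0.186, Nsf at 0.12 and Slc1a3 at 0.0235, and under median-of-ratios scaling Camk2a at 0.0468, Elavl2 at 0.0623, Nsf at 0.0763, Slc1a3 at 0.0595 and Tbr1 at 0.0107. Bcl11b was at -0.00256 after rescaling without the non-neural lists, and the length and GC correction, with or without the block, put it at -0.0603 and Efnb2 at -0.00508. With 1 library left out Bcl11b lay between -0.0412 and 0.0502, Efnb2 between -0.0204 and 0.04004 and Nsf between -0.09047 and 0.0113. Insm1 was called higher under median-of-ratios scaling (adjusted p 0.0136), and Map1a, Elavl4 and Reln lower without either E17 library. The calls from E14 to E15.5 lay between 2114 and 4016 with 1 library left out, those higher between 791 and 1416 and those lower between 1323 and 2600. Of the step differences, 949 genes became 2335 with array weights, 1634 with a length and GC correction, 1545 with that correction and the replicate block, and 341 at an adjusted p under 0.01, with 199 to 2365 when 1 library was left out. The 334 positive ones became 757, 569, 528 and 138 in the same order, and 534 under median-of-ratios scaling (78 to 731 with 1 library left out), and the 615 negative ones 1578, 1065, 1017 and 203 (121 to 1715). The neuronal lists' 64 became 102 with array weights and 34 at 0.01 (19 to 105), and the progenitor lists' 67 became 103 and 11 (6 to 104). The cause was not tested. As a share of the listed genes' TPM, the summed changes were 2.54 percentage points for neuronal, -0.82 for progenitor and -0.70 for non-neural genes. Same-numbered E14 and E15.5 libraries did not deviate together (r = -0.08 across genes). With 2 libraries per stage this is 1 comparison, which cannot decide whether the numbers pair them. With the replicate block 3004 genes were called and 854 had a step difference, and the calls of Cadps (adjusted p 0.0509) and Cplx2 (0.0511) were lost. Using only the 4 libraries gave 4575 calls and no flanking steps.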
